A study of Mus musculus with 2 samples.

Results

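The keratin gene clusters were examined for binding of CTCF in cells of the E14TG2a.4 line, embryonic stem cells from a male mouse of strain 129/Ola. CTCF is a DNA-binding protein with zinc fingers that stops cohesin and so holds the feet of chromatin loops, and many of its sites act as insulators. Members were the protein-coding genes whose symbols are Krt followed by a number, in the GENCODE vM1 gene models on the mm9 build, with keratin-associated protein genes (Krtap) left out. The rule took 51 of 22202 protein-coding genes, and 46 if symbols with a letter or suffix after the number are dropped. It then took the CTCF peaks inside the clusters and in the 200 kb outside each end, which were 35 and 58 of 39349 peaks. ChIP-seq with a CTCF antibody was done on 2 libraries of that line, labelled as biological replicates 1 and 2, with no second condition. Comparisons were therefore of one replicate with the other and of the clusters with the genome around them. The deposited lists hold peaks, not reads, so depth is unknown, and they hold no expression values, so neither the cell type nor keratin expression could be checked from them. Nothing in the labels says whether the replicates were separate cultures of the line.

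Keratins are the intermediate filament proteins of epithelial cells, and a filament needs a type I (acidic) and a type II (basic) partner. Partners are expressed in pairs that mark a tissue, such as Krt8 with Krt18 in simple epithelia, Krt5 with Krt14 in the basal layer of the epidermis, and Krt1 with Krt10 in the layers above it. Type I genes sit together on mouse chromosome 11 and type II genes on chromosome 15, with Krt18, a type I gene, at the end of the type II cluster. Krt8 and Krt18 are among the first keratins made in the mouse embryo, while most other members belong to epidermis, hair follicle or mucosa.

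Joining members within 200 kb gave 3 blocks. Chromosome 11 held 2 blocks of type I genes, Krt222 to Krt40 (chr11:99094075-99404472, 12 genes, 310 kb) and Krt33a to Krt42 (chr11:99872509-100131185, 15 genes, 259 kb). Between them lay 468 kb of Krtap genes, which encode the matrix proteins of hair. Chromosome 15 held 1 block, Krt80 to Krt18 (chr15:101177875-101862457, 24 genes, 685 kb). The widest gap that was joined, between Krt75 and Krt6b, was 102 kb, and the only one not joined on these chromosomes was the 468 kb between Krt40 and Krt33a. At the outer limits of the flanks, the peaks just inside had folds of 5.38, 21.8, 21.24 and 25.58, and the peaks just outside 8.58, 7.6, 5.2 and 16.04.

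The members and regions were taken up because of earlier values of these lists, namely the positions of peaks inside the clusters and at their edges, their fold enrichment and their presence in both replicates. Those values are given here as descriptions, with no test. Fold enrichment is the authors' value for each peak of the mm9 lists, a ratio on a scale that is not stated, with a median of 12 in the pooled list. The lists of replicates 1 and 2 had medians of 13.7 and 14, so folds were compared across lists only by rank or relative to these medians. Peaks of 1 library and genes of 1 cluster are not independent replicates, and the exact Clopper-Pearson intervals below cover counting error only.

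CTCF sites were read from the sequence of these peaks with a 19 bp motif learned on other chromosomes. The sites below, each with 10 bp either side and written 5′ to 3′ on the strand of the motif, come from the mm9 genome at the strongest and the weakest peak of each block and at the nearest peak beyond each block end. They are shown because their peaks are the strongest, weakest and nearest ones described below, and capitals mark the 19 bases that matched the motif.
Between Krt28 and Krt10, fold 23.35, strongest of Krt222 to Krt40, chr11:99241074-99241092, plus strand: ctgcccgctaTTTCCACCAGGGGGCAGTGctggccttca
Between Krt10 and Krt12, fold 4.78, weakest of Krt222 to Krt40, chr11:99268919-99268937, plus strand: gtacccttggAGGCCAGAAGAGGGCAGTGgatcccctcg
Between Krt9 and Krt14, fold 24.76, strongest of Krt33a to Krt42, chr11:100061603-100061621, plus strand: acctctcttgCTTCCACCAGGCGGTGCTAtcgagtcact
Between Krt14 and Krt16, fold 4.36, weakest of Krt33a to Krt42, chr11:100082388-100082406, plus strand: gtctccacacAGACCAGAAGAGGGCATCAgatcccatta
Between Krt78 and Krt8, fold 25.04, strongest of Krt80 to Krt18, chr15:101814940-101814958, minus strand: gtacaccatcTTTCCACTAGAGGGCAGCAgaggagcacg
Between 1700011A15Rik and Krt81, fold 4.36, weakest of Krt80 to Krt18, chr15:101286524-101286542, plus strand: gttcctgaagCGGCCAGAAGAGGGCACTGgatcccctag
Below Krt222, fold 4.47, chr11:99078746-99078764, plus strand: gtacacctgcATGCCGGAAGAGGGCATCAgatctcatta
Above Krt40, fold 10.27, chr11:99409390-99409408, plus strand: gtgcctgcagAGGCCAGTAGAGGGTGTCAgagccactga
Below Krt33a, fold 20.26, chr11:99868130-99868148, minus strand: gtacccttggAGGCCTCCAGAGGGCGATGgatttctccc
Above Krt42, fold 20.26, chr11:100144081-100144099, plus strand: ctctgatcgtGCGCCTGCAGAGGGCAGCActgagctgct
Below Krt80, fold 5.91, chr15:101172393-101172411, plus strand: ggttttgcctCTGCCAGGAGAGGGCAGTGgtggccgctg
Above Krt18, fold 19.13, chr15:101896249-101896267, minus strand: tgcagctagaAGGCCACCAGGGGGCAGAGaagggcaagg
The order of these peaks by fold did not follow the match to the motif. The weakest peaks of the 3 blocks scored 23.1, 21.1 and 24.2 bits, against 20.6, 13.2 and 20.4 bits at the strongest peaks. Each printed site is the best-scoring one in its peak and need not be the one bound. At the strongest peak of Krt80 to Krt18 it lay 449 bp from the midpoint, in a peak with 4 sites of at least 12.9 bits. Above Krt42 it lay 488 bp from the midpoint, while the weakest peaks had theirs within 43 bp.

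No keratin promoter held a CTCF peak. A peak midpoint lay within 1000 bp of a start in 0 of 51 members (95% interval 0 to 6.98%) in the pooled list, against 10.3% of all protein-coding genes. The count was also 0 in the list of replicate 1, with 9.39% of all genes, and in that of replicate 2, with 9.51%. Keratin promoters were poor in CpG, with a median observed over expected ratio of 0.325 against 0.473 for all genes, and 46 of 51 members lay under 0.5, against 51.8% of all genes. Among all genes under that ratio 7.35% had a promoter peak. The keratin count there, 0 of 46, follows from the 0 of 51. The part of promoter CpG content in the promoter count was not tested.

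Keratin starts lay between 4.0 and 57.8 kb from the nearest peak, with a median of 14.8 kb against 11.5 kb for all genes. The start nearest to a peak was that of Krt5, the basal type II keratin, at 4005 bp from a peak of fold 7.17. Next came Krt81, a hair keratin, at 4292 bp, Krt28 of the inner root sheath at 4850 bp, Krt40 of hair at 4957 bp, and Krt222 at 5158 bp. In this list Krt76, a keratin of the palate, was farthest at 57815 bp, although the mm10 lists described below place a weak peak inside that gene, followed by Krt13 of stratified mucosa at 47843 bp and the hair keratin Krt36 at 46590 bp. A peak lay within 10 kb of the start of 19 of 51 members, 37.3% (24.1 to 51.9%) against 46.5% of all genes.

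**Figure D1:**
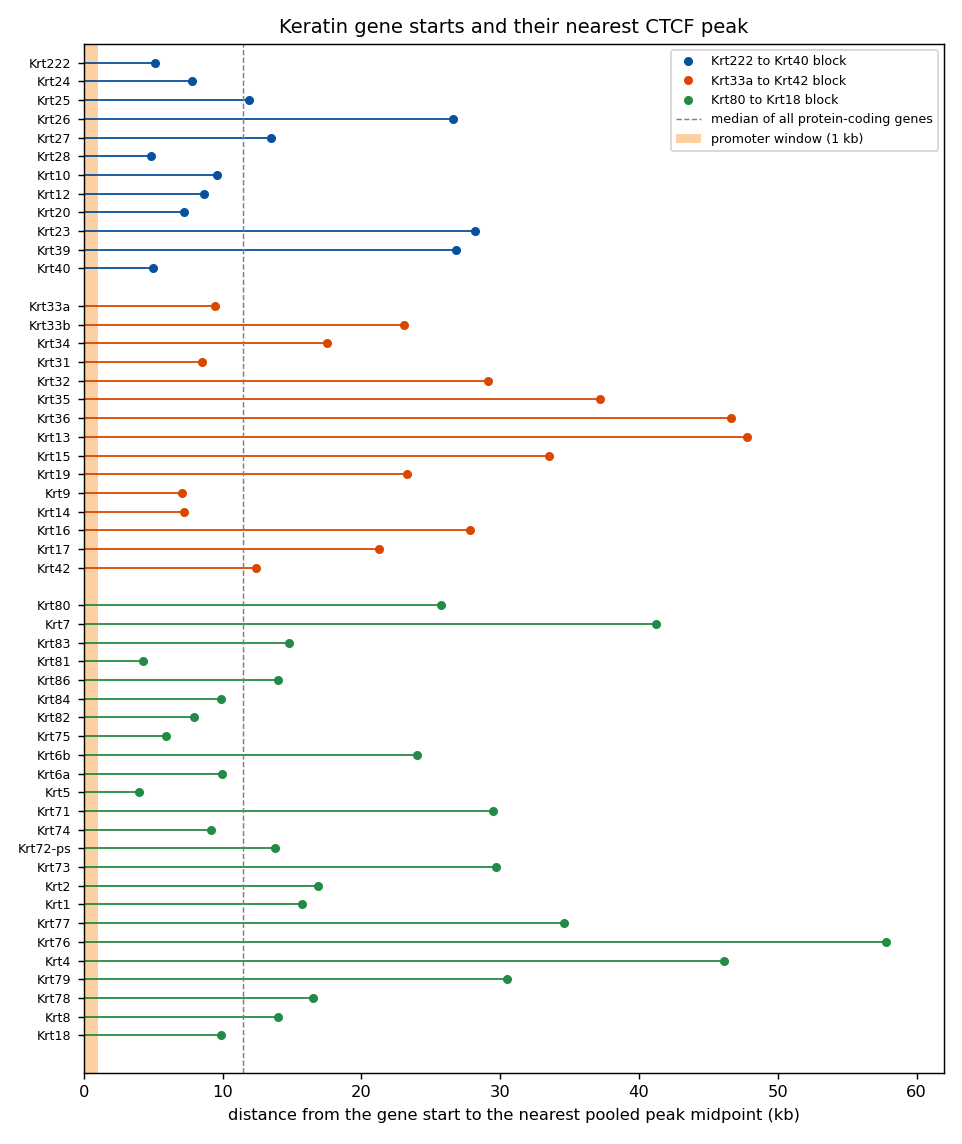
Distance in kb from the start of each of the 51 keratin genes (rows, in chromosome order within each block) to the nearest pooled CTCF peak midpoint. The shaded band is the promoter window of 1 kb and holds no point, and the dashed line marks the median of all protein-coding genes, 11.5 kb.

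Distances overlapped between keratins of different tissues. Grouped by textbook role, after the values were known, the 5 keratins of simple epithelia (Krt7, Krt8, Krt18, Krt19, Krt20) had a median of 14 kb and a range of 7.2 to 41.2 kb. The 14 hair keratins had a median of 14.4 kb, between 4.29 and 46.6 kb, and the 7 inner root sheath keratins one of 13.5 kb, between 4.85 and 29.7 kb. Smaller groups had medians farther apart, though their ranges overlapped too. The 3 basal keratins had 7.24 kb, between 4.0 and 33.5 kb, and the 2 suprabasal ones 12.7 kb, between 9.61 and 15.7 kb. The 4 keratins of wounding and nail had 22.6 kb, between 9.96 and 27.8 kb. The partners differed within a pair as well. Krt5 and Krt14 lay 4.0 and 7.24 kb from a peak, Krt1 and Krt10 15.7 and 9.61 kb, and Krt8 and Krt18 14 and 9.91 kb, the last 2 from the same peak between them. Krt19, the simple-epithelial type I keratin of ducts, lay 23.3 kb away, and Krt7, a frequent partner of it, 41.2 kb. The mm10 lists described below place a weak peak nearer to Krt7, at 17362 bp, which the mm9 pooled list lacks.

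Gene bodies held few peaks. A midpoint fell inside 6 of 51 members, 11.8% (4.44 to 23.9%) against 39.3% of all genes, with no allowance for gene length. Krt28 held 2 midpoints, with pooled folds of 6.33 in an exon and 18.85 in an intron. Krt20, a keratin of intestinal epithelium, held a peak of fold 5.63, Krt81 one of 11.53, Krt82 one of 7.03, Krt75 one of 10.27 and Krt5 one of 7.17, all in exons. The intronic peak of Krt28 was the only one of these 7 above the pooled median of 12. Of all 35 block peaks, 27 lay between genes, 7 in exons and 1 in an intron, against 37, 2 and 19 of the 58 flank peaks. The same shares over all pooled peaks were not counted.

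A minority of keratin promoters held a CTCF motif site. A site at or above 12.9 bits, the score that 1% of windows flanking peaks reach, lay within 1000 bp of a start in 8 of 51 members, 15.7% (7.02 to 28.6%) against 28.5% of all genes, a share just inside the interval. These were Krt222, Krt24, Krt9, Krt73, Krt76, Krt78, Krt8 and Krt18. Block peaks were at most 1968 bp wide, and no midpoint lay within 4.0 kb of a keratin start. None of the 8 sites could therefore lie in a pooled peak. The closest were those of the simple-epithelial pair, 62 bp from the start of Krt8 (16.1 bits, plus strand) and 49 bp from the start of Krt18 (13.4 bits, plus strand). They are printed with 10 bp either side, capitals marking the matched bases, since they are motif matches at promoters where no peak was listed.
Krt8 start, chromosome 15: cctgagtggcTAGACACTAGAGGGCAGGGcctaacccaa
Krt18 start, chromosome 15: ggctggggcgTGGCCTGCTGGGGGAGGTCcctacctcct
The nearest listed peak to both was the one between the genes, 13962 bp from Krt8 and 9912 bp from Krt18, with folds of 10.13 in the pooled list, 10.3 in replicate 1 and 11.14 in replicate 2.

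Peaks were denser in the keratin blocks than over the genome but sparser than just outside the blocks. The 3 blocks together held 2.79 peaks per 100 kb in the pooled list, against 6.62 in the 4 flanks that lead out of the clusters and 1.54 over the autosomes and X. In the replicate lists the blocks averaged 2.63 ± 0.226 peaks per 100 kb and the outer flanks 5.88 ± 0.53 (SD, n = 2 each). The outer flanks were set apart after the data were seen, and peak position was part of the rule, so this difference is a description. With the flanks that lead into the Krtap stretch included, all flanks held 4.83 peaks per 100 kb, and 4.38 ± 0.417 in the replicate lists (SD, n = 2).

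The blocks differed from each other. Krt222 to Krt40 held 14 peaks in the pooled list, 12 in replicate 1 and 14 in replicate 2, and its pooled density of 4.51 per 100 kb was above the 2.42 of chromosome 11. Krt33a to Krt42 held 4 peaks in the pooled list, 3 in replicate 1 and 4 in replicate 2. Its pooled density of 1.55 was under the 2.42 of chromosome 11 and close to the 1.54 of the autosomes and X. Krt80 to Krt18 held 17, 16 and 17 peaks, a pooled density of 2.48 against 1.62 for chromosome 15. The outer and the Krtap side of a type I block differed. For Krt222 to Krt40 the outer flank held 7 and the Krtap-side flank 1 peak per 100 kb, so the block was sparser than the one and denser than the other. Krt33a to Krt42, the sparsest of the 3 blocks, was close to the 1.5 of its Krtap-side flank and under the 5.5 of its outer flank, toward Eif1, Hap1 and Jup. The flanks of Krt80 to Krt18 held 9 peaks per 100 kb below and 5 above. With both sides pooled, the density of the block over that of its flanks was 1.13 for Krt222 to Krt40, 0.442 for Krt33a to Krt42 and 0.355 for Krt80 to Krt18.

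**Figure D2:**
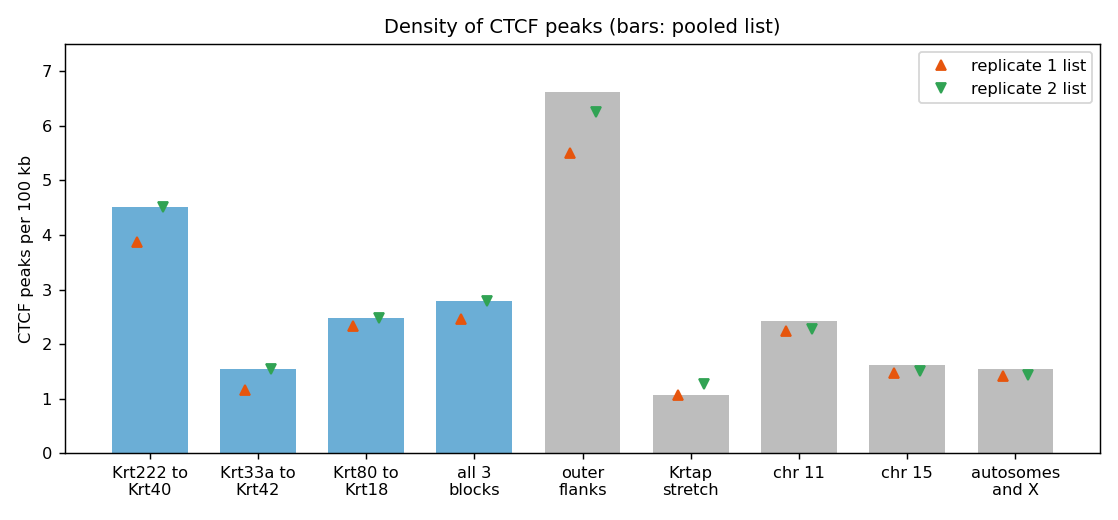
CTCF peaks per 100 kb in each keratin block, in all 3 blocks, in the 4 outer flanks, in the Krtap stretch, on chromosomes 11 and 15 and over the autosomes and X. Bars show the pooled list and triangles the list of each replicate, and the outer flanks reach 6.62 against 2.79 in the 3 blocks.

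Most block peaks were listed in both replicates. Of the 35, 31 had an overlapping peak in both lists, and the 4 others were missing from replicate 1, with pooled folds of 4.36 to 6.33. In the flanks 45 of 58 peaks were listed in both, 11 were missing from replicate 1 and 5 from replicate 2. The same share over all pooled peaks was not counted, and presence in both replicates was part of the rule. These counts therefore do not show whether block peaks differ from the rest of the list. With each fold divided by the median of its list, the 31 block peaks in replicate 2 stood at 0.69 to 1.61 times their value in replicate 1, with a median of 1.06.

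Peaks in the blocks were of middling strength. Their median fold was 11.5, with a range of 4.36 to 25.04, against 14.1 and a range of 2.95 to 29.82 in the flanks and 12 in the whole list. By block the medians were 14.2 in Krt222 to Krt40, 16.3 in Krt33a to Krt42 and 10.3 in Krt80 to Krt18, against 12.1, 19.8 and 13.2 in their own flanks. This order of block and flanks turned round with flanks of 100 kb in Krt222 to Krt40 (17.4 in the flanks) and Krt80 to Krt18 (9.19), and with flanks of 500 kb in Krt33a to Krt42 (14.1). In Krt222 to Krt40 it also turned round in the list of replicate 1 alone, with 16.4 in the block and 17.2 in the flanks. Above the pooled median were 9 of 14, 3 of 4 and 5 of 17 block peaks, so the type II block held mostly weak peaks.

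In Krt222 to Krt40 strong peaks were spread over the block. The strongest, between the inner root sheath gene Krt28 and the suprabasal gene Krt10 (chr11:99240607-99241526), had folds of 23.35 in the pooled list, 30.63 in replicate 1 and 24.85 in replicate 2. It ranked 1818 of 39349 and was 2.0 ± 0.322 times the median of its list (SD, n = 2). The gene body of Krt28 held the next, of pooled fold 18.85, and a peak of 18.29 lay between Krt24 and Krt25. Further pairs of peaks lay between Krt222 and Krt24, with pooled folds of 16.26 and 13.93, and between Krt20 and Krt23, with 14.13 and 17.16. The inner root sheath genes Krt25, Krt26 and Krt27 thus had a peak of 11.39 on their low-coordinate side and one of 16.74, between Krt27 and Krt28, on the other, with 53.5 kb free of peaks between them. The 5 remaining peaks had pooled folds of 6.33 in Krt28, 9.85 between Krt24 and Krt25, 4.78 and 14.35 between Krt10 and the corneal keratin Krt12, and 5.63 in Krt20. No peak lay in the last 78.3 kb of the block, which hold Krt23, Krt39 and Krt40, and the next peak, of fold 10.27, was 4957 bp beyond Krt40.

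In Krt33a to Krt42 the 4 peaks divided the 15 genes into 5 runs. The hair keratins Krt33a, Krt33b, Krt34 and Krt31 lay below a peak of pooled fold 14.63, with 15.58 in replicate 1 and 15.42 in replicate 2. Krt32 to Krt19, 6 genes that include the hair keratins Krt35 and Krt36, the mucosal Krt13 and the basal Krt15, shared an interval of 110 kb with no peak. A peak of 18.01, with 20.86 and 20.85 in replicates 1 and 2, set Krt19 apart from Krt9, the keratin of palms and soles. The strongest peak of the block lay between Krt9 and Krt14 (chr11:100061130-100062114), with folds of 24.76 in the pooled list, 29.04 in replicate 1 and 34.28 in replicate 2, at rank 1123. Between Krt14 and Krt16, a wound-induced keratin, was a peak of fold 4.36 that replicate 1 lacked and that had 5.71 in replicate 2. Krt16, Krt17 and Krt42 had none between them.

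Strong peaks stood just outside both ends of this block. Below Krt33a, peaks of pooled fold 25.74 (chr11:99865848-99866821, rank 784) and 20.26 lay within 6174 and 4400 bp of the gene. Above Krt42, 4 peaks spanned 18.2 kb toward the translation factor gene Eif1, with pooled folds of 20.26, 25.18, 19.41 and 29.82. The last of them (chr11:100161375-100162273) had folds of 38.81 in replicate 1 and 37.42 in replicate 2 and ranked 185 of 39349. No peak inside any of the blocks reached it.

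Between the type I blocks, the Krtap genes lay in a stretch with few CTCF peaks. The 468 kb held 5 pooled peaks, or 1.07 per 100 kb against 1.54 over the autosomes and X, none of them in its middle. Between a peak of fold 19.41, at the Krt40 end, and one of 10.55, at the Krt33a end, 390 kb (chr11:99435583-99825789) held no midpoint of the mm9 pooled list, no mm9 peak of replicate 1 and 1 of replicate 2, of fold 8.0. The mm10 conservative set, described below, lists 1 peak in the middle of the stretch. The interval held 17 of the 22 Krtap genes of the stretch, from Krtap1-5 to Krtap9-5, and 27 motif sites, with no base unknown in the mm9 sequence. Of 39329 intervals between neighbouring peaks in the genome 2.47% were at least as long, and the median was 23.9 kb.

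**Figure D3:**
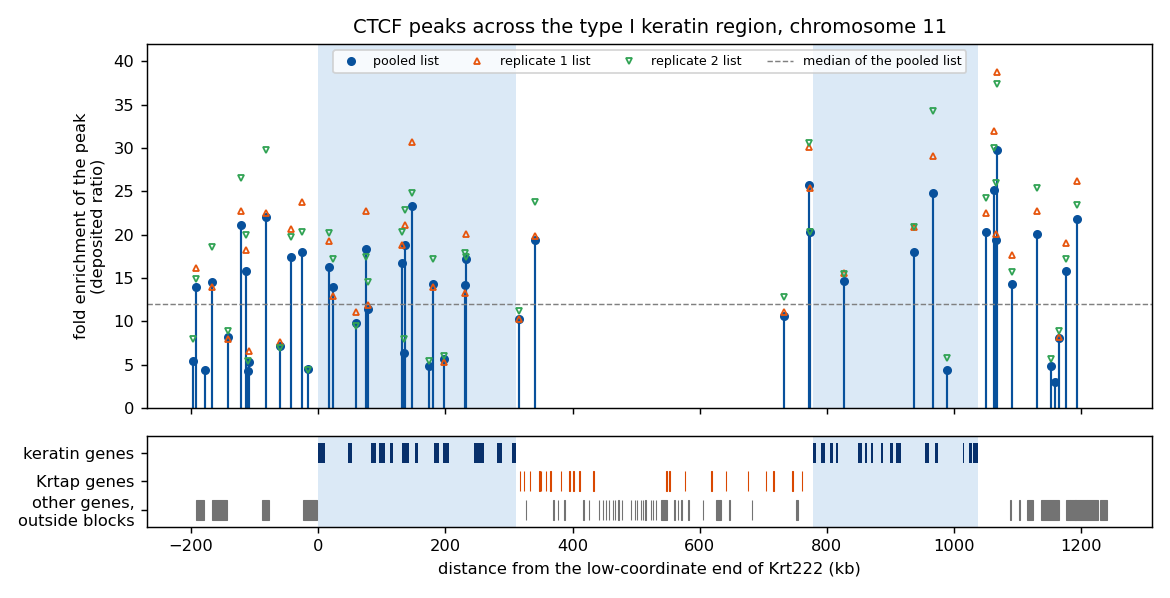
Fold enrichment of every CTCF peak (y axis, deposited ratio) against distance in kb from the low-coordinate end of Krt222, with the 2 type I blocks shaded and keratin, Krtap and other genes drawn below. Circles with stems are pooled values and open triangles the replicate lists, and the 390 kb without a pooled mm9 peak lie between the blocks, over the Krtap genes.

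In the type II block, weak peaks ran along the epidermal and hair genes and a strong group stood near the end. The 12 peaks from Krt83 to Krt1 had a median pooled fold of 9.01, between 4.36 and 17.86, and 1 of them passed the pooled median of 12. That one lay between Krt74 and Krt72-ps, an inner root sheath gene and a neighbour whose suffix marks a pseudogene, with 19.01 in replicate 1 and 19.42 in replicate 2. The 4 peaks between Krt78 and Krt8, within 17.8 kb, had pooled folds of 16.74, 21.94, 25.04 and 21.66, with 16.37 to 30.63 in replicate 1 and 21.71 to 31.71 in replicate 2. All 4 were above every one of the 12 in the pooled list except for the peak at 17.86, which passed the lowest of them.

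On the mm9 gene models the strong group separated Krt8 and Krt18 from the 22 other genes of the block. On mm10 a longer model of Krt78 covers the corresponding group, as described below. The strongest mm9 peak of the group (chr15:101813516-101815483) ranked 1020 of 39349 and was 2.25 ± 0.0241 times the median of its list (SD, n = 2). Toward the other genes, 136 kb without a peak of the mm9 pooled list held Krt1, Krt77, Krt76, Krt4, Krt79 and Krt78. Beyond Krt18, the next peak was 33.9 kb away, toward the translation factor gene Eif4b, with folds of 19.13 in the pooled list, 22.44 in replicate 1 and 17.71 in replicate 2. At the other end of the block, Krt80, Krt7 and Krt83 lay in the 106 kb before the first mm9 pooled peak, of fold 9.71, while 18 peaks filled the 200 kb below Krt80, a density of 9.0 per 100 kb.

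**Figure D4:**
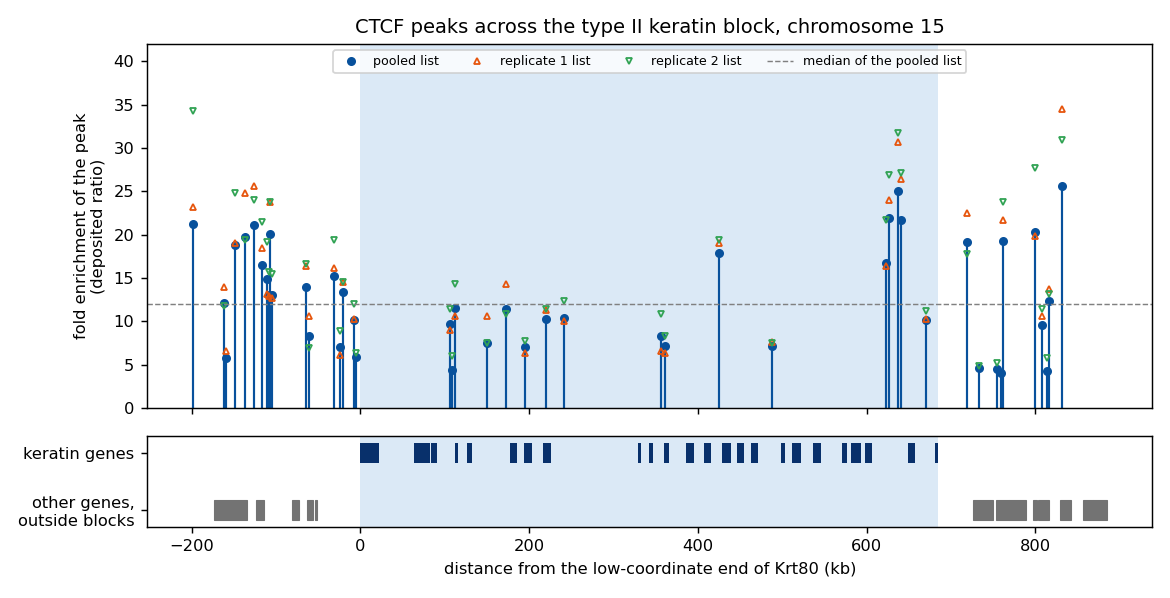
Fold enrichment of every CTCF peak (y axis, deposited ratio) against distance in kb from the low-coordinate end of Krt80, with the type II block shaded and genes below. The 4 peaks of 16.74 to 25.04 near the end of the block lie between Krt78 and Krt8, and most other block peaks lie under the dashed line at the pooled median.

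Motif sites, whose position and score the choice of regions did not use, were sparser in the blocks than in the outer flanks and denser than in the Krtap stretch. The 3 blocks held 150 sites, or 12 per 100 kb, against 25.5 in the outer flanks, 19.9 in all flanks, 7.69 in the Krtap stretch and 8.43 over the autosomes and X. On the Krtap side, Krt222 to Krt40 held 13.9 sites per 100 kb against 8.5 in that flank, and Krt33a to Krt42 10.8 against 9. Of these sites 26.0% (19.2 to 33.8%) lay in a pooled peak, against 30.4% (24.2 to 37.2%) in the outer flanks and 17.8% of all sites. The difference in the share of sites bound was not tested. By block the shares were 34.9% of 43 sites, 17.9% of 28 and 24.1% of 79, and in the Krtap stretch 13.9% of 36. GC content was 47.1% in the blocks, 49.0% in the outer flanks and 41.8% over the genome, and its part in the density of sites was not tested.

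Nearly all block peaks held a motif site. One was found anywhere in 31 of 35 peaks, 88.6% (73.3 to 96.8%) against 84.4% of all pooled peaks, and within 50 bp of the midpoint in 24, 68.6% (50.7 to 83.1%) against 61.5%. The 4 peaks of the Krt78 to Krt8 group all had their best site on the minus strand, as did the peak between Krt8 and Krt18 and the first beyond Krt18. The 4 peaks inside Krt33a to Krt42 all had theirs on the plus strand, while the 3 strong peaks that end the group above Krt42, and both peaks below Krt33a, had theirs on the minus strand. In Krt222 to Krt40 the best sites over the threshold were mixed, 7 on the plus and 5 on the minus strand. The best site of a peak need not be the one bound. In the Krt78 to Krt8 group it lay 449 and 341 bp from the midpoint at the peaks of fold 25.04 and 21.66. These peaks held 4 and 2 sites over the threshold. Above Krt42, at the peak of fold 19.41, it lay 701 bp away in a peak with 3 sites.

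The weakest peaks shared a run of letters. The sites of the weakest peak in each block have CCAGAAGAGGGCA in common, the longest run the 3 share, found after their values were seen and searched on both strands. It occurred in 5 of 35 block peaks and 7 of 58 flank peaks, 14.3% and 12.1%, against 11.9% of all pooled peaks. The block peaks with the run had pooled folds of 9.85, 4.78, 4.36, 4.36 and 25.04, the last at the strongest peak of the type II block. Over the whole list the median fold was 10.3 with the run and 12.2 without it. The run overlaps the CTCF motif itself, and similar letters occur in B2 short interspersed elements of the mouse. Repeat annotation was not used here, so no peak was assigned to a repeat.

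The mm10 lists, made from the same libraries, gave the same order of density and placed the strong groups near the same genes. But these lists also held weak peaks in intervals that the mm9 pooled list leaves empty. Their values are a signal per peak on a scale that is not stated, with a median of 77.2 in the conservative set of reproducible peaks. That set held 15, 6 and 23 peaks in the 3 blocks in the order above, or 3.51 per 100 kb together, against 8.0 in the outer flanks and 1.65 over the genome. Several of its peaks lie where the mm9 pooled list has none, among them one between Gm5414 and Krt6b, with a signal of 22.29. Another 3 of them, chosen after their values were seen, are described here, all below the median signal of the set. One lies in the middle of the Krtap stretch, between Krtap4-16 and Gm11568 (chr11:99854136-99854451), with signals of 40.12 in the pooled list, 14.1 in replicate 1 and 25.9 in replicate 2. Another lies between Krt80 and Krt7 (chr15:101394883-101395198), with 29.82, 17.6 and 11.2 in the same lists, and the third inside Krt76 (chr15:101887169-101887484), with 27.14, 10.8 and 14.9. Between Krt79 and Krt8 the set listed 7 peaks (chr15:101970663-101989075) with signals of 36.19 to 197.2. RefSeq's model of Krt78 on mm10 is longer and covers them, so they count as inside Krt78 there and as intergenic on mm9. The strongest mm10 peak of the regions lay between Krt42 and Eif1 (chr11:100300399-100300652), with signals of 293.8 in the pooled list, 158 in replicate 1 and 132 in replicate 2.

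No keratin start carried a reproducible mm10 peak either. Of 53 keratin genes in the RefSeq table, 36 had a start that could be matched, and 0 of 36 had a summit within 1000 bp in the conservative set, against 9.96% of all genes, or in the optimal set, against 10.2%. The full replicate lists, which include background, placed an entry there in 8 of 36 in replicate 1, against 36.9%, and in 8 of 36 in replicate 2, against 33.6%. Only Krt25 was among the 8 in both. In replicate 1 these entries had signals of 5.32 to 9.63, and 5 of 8 were above the list median of 6.74. In replicate 2 they had 4.97 to 9.07, and 4 of 8 were above the list median of 6.08. The highest were at Krt75 in replicate 1 and at the hair keratin Krt31 in replicate 2, and the entry near Krt8, 288 bp from its start, had 6.2 in replicate 1.

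Other gene groups of epithelial tissue varied in the same promoter measure, read beside the 10.3% of all genes. None of the 46 Krtap genes (interval 0 to 7.71%) and none of the 41 genes of the cornified envelope, the outer shell of epidermal cells (0 to 8.6%), had a promoter peak in the pooled list. Of 16 other intermediate filament genes 3 had one, namely Nes (nestin), with a fold of 18.71, Synm (synemin), with 7.88, and Lmna (lamin A and C), with 7.6. Of 16 desmosome genes, whose proteins tie keratin filaments to cell junctions, Jup (plakoglobin) alone had one, of fold 8.02. Of the 13 epithelial transcription factor genes found, Elf3 had one of 16.6 and Grhl2 one of 11.68. Among the 70 protein-coding genes of the flanks, 3 had a promoter peak, namely Jup, Klhl11 and 9430023L20Rik. All 3 were among the 26 genes of the outer flanks.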

How the data were processed

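CTCF ChIP-seq peak lists of 2 biological replicates of a mouse embryonic stem cell line were used. The mm9 lists (each replicate and pooled) hold a deposited fold enrichment, a ratio, and a deposited −log10 p per peak. The mm10 lists hold a deposited signal per peak, and, per the labels, include background entries made as input for IDR. For caller, aligner and control normalisation the sources used here name nothing. The deposited IDR score of the mm10 sets was not used to weigh peaks. No column was left unmapped (0).

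Peaks were counted by midpoint (mm9) or summit (mm10) on the autosomes and X. A replicate value is that of the strongest overlapping replicate peak. Starts are those of protein-coding transcripts of GENCODE vM1. The 19 bp motif was learned by expectation maximisation on 5000 peaks of even-numbered chromosomes and tested on simulated data, as were block and interval counts. For mm10, genes were placed by RefSeq (GRCm38.p6). No coordinates were converted between builds. Intervals are exact Clopper-Pearson at 95%.

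Members, gene lists and the printed sequences were chosen with earlier results of these data known, so no test was run. Named genes are the pairs of simple, basal and suprabasal epithelia, block ends, the 5 starts nearest to a peak, the 3 farthest and genes with a peak inside. Python 3.11.15, numpy 2.4.6, pandas 2.3.3 and scipy 1.17.1 were used. Alternatives covered promoter window, flanks, joining distance, fold and motif thresholds, and each replicate alone.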

Additional observations from a re-analysis of the deposited data

How the results depend on the processing

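No keratin promoter held a peak with windows of 500 or 2000 bp, with either replicate list, with the 46 symbols of digits alone or with the starts of every transcript. The last 2 settings were chosen after seeing the data. With 5000 bp the count was 4 (Krt5, Krt81, Krt28 and Krt40). Leaving out replicate 1 or 2 means using the list of the other replicate, and it left block counts of 14 and 12, 4 and 3, and 17 and 16. Counting any overlap left the block counts at 14, 4 and 17, and joining within 50 or 1000 kb gave 34 and 40 peaks in all. With only peaks at or above the list median fold, Krt222 to Krt40 kept 9, Krt33a to Krt42 3 and Krt80 to Krt18 5 peaks.

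With both flanks pooled, the density in a block relative to its flanks stayed above 1 in Krt222 to Krt40 and below 1 in the other blocks under each flank size, fold threshold and replicate list. The sides were also taken alone in the pooled list, settings chosen after seeing the data. In Krt222 to Krt40 it was 0.644 against the outer and 4.51 against the Krtap-side flank, and in Krt33a to Krt42 0.281 and 1.03. Both blocks were thus sparser than their outer flank. Against its Krtap-side flank, Krt33a to Krt42 was sparser in replicate 1 (1.16 against 1.5 peaks per 100 kb) and replicate 2 (1.55 against 2). With flanks pooled, the relative density in Krt222 to Krt40 was 1.29 with flanks of 100 kb and 1.21 with 500 kb. At the median fold it was 1.45, and without either replicate 1.29. In Krt33a to Krt42 it was 0.344, 0.454 and 0.464 under the first 3 of these settings, and 0.357 to 0.387 when a replicate was left out. In Krt80 to Krt18 it was 0.414, 0.401 and 0.162, and 0.382 to 0.39.

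Median folds ran from 16.4 to 17.3 in Krt222 to Krt40, from 18.1 to 20.9 in Krt33a to Krt42 and from 10.6 to 11.4 in Krt80 to Krt18 when a replicate was left out, while the medians of the whole replicate lists, 13.7 and 14, were above that of the pooled list, 12. In their flanks they ran from 16.7 to 17.2, from 18.7 to 22.4 and from 16.1 to 16.2. With flanks of 100 kb the flank medians were 17.4, 20.3 and 9.19, and with 500 kb 13.2, 14.1 and 12.2. The order of block and flanks therefore depended on the flank size in all 3 blocks: Krt222 to Krt40 (14.2) was above its flanks at 200 and 500 kb and below them at 100 kb, Krt33a to Krt42 (16.3) was above them only at 500 kb, and Krt80 to Krt18 (10.3) only at 100 kb. Without replicate 2, Krt222 to Krt40 was below its flanks, 16.4 against 17.2. The cause was not tested.

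The share of motif sites inside a peak rose with the score required. At the score of 0.1% of flanking windows it was 60, 50 and 71.4% in the 3 blocks, and at that of 5% it was 14.1, 3.51 and 6.13%. Leaving out a replicate gave 32.6 to 34.9%, 14.3 to 17.9% and 22.8% in each case. The share of block peaks with a motif was 88.6% anywhere in the peak, 20.0% at the stricter and 80.0% at the looser score, and 68.6 to 71.0% when a replicate was left out. The optimal mm10 set gave 16, 7 and 23 block peaks.

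The lists give no read counts, so depth is unknown, and a promoter with no listed peak is not shown to lack CTCF. With 1 group and 2 libraries, no test between conditions was possible, and folds from the pooled list carry no error of their own. No paired analysis was possible because the series has a single group.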
